A study of Homo sapiens with 18 samples.

Results

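A run of neighbouring genes on chromosome 4, from NAAA to SMAD1, gave lower signals in the HEK line A30 than in the parental cells. The run was chosen from these same A30 and parental values, so the A30 values are given as a description, with no test. Members are the named genes that start within the run and exceeded 5.6 (log2) on at least 3 of 18 arrays, leaving out symbols that begin with LINC, MIR, SNOR, SCARNA, SLC, PCDH, ZNF, RPL or RPS. Of 205 named genes in the run, 30 were left out by symbol and 63 were too dim, which left 112 members of 9686 tested genes. Every member had a single named probe set. Of the members, 9 passed the filter through other lines only, with no A30 array above it (PLAC8, C4orf36, TSPAN5, ENPEP, TRAM1L1, SEPTIN7P14, NDNF, BBS12 and NUDT6), so these had to differ from some other line.

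HEK is an established human embryonic kidney line. RNA was measured on 18 Affymetrix arrays, 3 cultures each of 6 lines. A30, A10 and B21 were labelled ATXN1L-KO (made by CRISPR), N8 and N4 were CRISPR controls labelled ATXN1L wild type, and the parental cells were also labelled wild type. The labels describe CRISPR treatment, puromycin selection and isolation of single colonies, so each edited line stands for 1 clone. The same text is attached to the parental arrays, and all lines grew in DMEM with fetal bovine serum. Values are deposited log2 signals per probe set, so a difference of −1 is a halving, and a signal depends on the probe set as well as on the RNA, so signals of different genes are not compared as levels.

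HEK cells have a rearranged, aneuploid karyotype, and clones picked from a culture can differ in it. It is known from other cells that gain or loss of a chromosome segment tends to move the transcripts of many genes along it in the same direction, whatever their function. DNA copy number was not analysed here, and in bulk RNA fewer cells with a transcript and less of it per cell cannot be told apart. The members were chosen by position and not by pathway. They include a BMP signal transducer (SMAD1), a peptidase (ENPEP), a lipid hydrolase (NAAA) and a ubiquitin-specific peptidase family member (USP53).

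The ATXN1L signal averaged 7.39 ± 0.07 in A30, 7.37 ± 0.14 in A10 and 7.48 ± 0.11 in B21, against 7.21 ± 0.07 in N8, 7.17 ± 0.07 in N4 and 7.11 ± 0.05 in the parental cells (log2, SD, n = 3 each). The labels do not say which stretch of ATXN1L was edited, so this signal, which was higher and not lower in the 3 lines labelled KO, does not check them. Replicate 1 of A10 stood apart. After centring each gene over the 18 arrays, its correlation across genes was 0.014 and 0.135 with the other A10 arrays but 0.395 with replicate 1 of N4. Replicate 1 of N4 was itself nearer to replicate 1 of the parental cells (0.415) than to its own line (0.338 and 0.371). Of 12 listed kidney or HEK markers, 10 had a symbol and 9 passed the filter, among them WT1, EYA1 and LHX1. PAX8 did not pass (4.64 to 5.14), and PAX2 lay on both sides of the filter value (5.25 to 5.85). The mean of the 9 that passed lay between 7.20 and 7.39 in every line. No listed leukocyte, endothelial or keratinocyte marker passed (6 had a symbol), while the fibroblast gene LUM did, at 4.64 to 6.07, and DCN stayed at 1.99 to 2.51.

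The promoter windows of a few members are shown because genes that move together can be asked what their start regions share. RefSeq windows (GRCh38.p14, 250 bases before to 50 after the start) were found for 98 of 112 members. The windows below belong to 2 of the genes that mark the run in its middle and at its far end (USP53, SMAD1) and to the 2 protein-coding members with the largest measured differences in A30 (ENPEP, CLGN). Capitals mark the GC box GGGCGG, the CCAAT box CCAAT and the TATA box TATAAA, each on either strand.
ENPEP, chr4:110475905-110476204, plus strand: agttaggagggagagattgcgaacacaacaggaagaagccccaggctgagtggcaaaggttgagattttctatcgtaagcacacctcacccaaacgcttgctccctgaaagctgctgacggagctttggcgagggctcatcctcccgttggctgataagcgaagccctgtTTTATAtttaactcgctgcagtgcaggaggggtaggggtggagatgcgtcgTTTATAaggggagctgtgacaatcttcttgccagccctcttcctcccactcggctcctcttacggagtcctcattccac
USP53, chr4:119212463-119212762, plus strand: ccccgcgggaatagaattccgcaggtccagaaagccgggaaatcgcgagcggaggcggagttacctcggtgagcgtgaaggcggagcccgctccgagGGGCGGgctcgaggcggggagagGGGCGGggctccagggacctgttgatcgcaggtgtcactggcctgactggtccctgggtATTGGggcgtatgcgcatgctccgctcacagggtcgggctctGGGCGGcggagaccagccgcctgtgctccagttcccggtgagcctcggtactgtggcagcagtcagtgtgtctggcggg
SMAD1, chr4:145481056-145481355, plus strand: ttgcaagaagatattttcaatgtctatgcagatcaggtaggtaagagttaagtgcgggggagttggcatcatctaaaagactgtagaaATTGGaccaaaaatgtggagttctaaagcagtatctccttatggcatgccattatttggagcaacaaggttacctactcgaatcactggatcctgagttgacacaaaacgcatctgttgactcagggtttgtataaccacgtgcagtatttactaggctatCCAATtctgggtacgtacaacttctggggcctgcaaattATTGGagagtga
CLGN, chr4:140427599-140427898, minus strand: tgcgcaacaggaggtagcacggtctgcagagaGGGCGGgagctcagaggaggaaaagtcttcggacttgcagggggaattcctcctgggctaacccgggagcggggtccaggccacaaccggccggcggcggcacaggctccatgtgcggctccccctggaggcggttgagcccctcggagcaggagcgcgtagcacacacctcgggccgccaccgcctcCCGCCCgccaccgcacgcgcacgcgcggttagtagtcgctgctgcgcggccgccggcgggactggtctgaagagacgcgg
The windows differ widely. ENPEP has 2 TATA boxes and no GC box at 53.7% G and C, USP53 has 3 GC boxes and 1 CCAAT box at 68.3%, SMAD1 has 3 CCAAT boxes and no GC box at 42%, and CLGN has 2 GC boxes at 71%.

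Member windows were close to those of tested genes on other chromosomes in these motifs, and differed from the set of all windows in the GC box and the TATA box. A GC box was found in 67.3% of the 98 member windows, against 70.8% of 7274 windows of tested genes on other chromosomes and 44.6% of all 27305 windows. The CCAAT box was found in 37.8%, 36.9% and 35.7% of these sets and the TATA box in 5.10%, 5.66% and 11.95%. The octamer TGAATGAA, which CIC is known to bind, was searched on either strand and in this exact form only. It was found in 1.02% of member windows, a single gene (TRMT10A, a tRNA methyltransferase gene), against 1.25% and 1.67%. Over the 98 members, the G and C content and the A30 difference correlated at Pearson r = −0.12 (Spearman −0.11).

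In A30, 111 of 112 members were below the parental cells, with a median difference of −0.61 (log2), or 65.7% of the parental signal. Over all tested genes 48.8% were below, with a median of 0.00. The quartiles of the members were −0.72 and −0.46. By array, the median over members was −0.60, −0.68 and −0.53 in the 3 A30 arrays, against 0.00, −0.05 and 0.04 in the parental arrays. All A30 arrays were thus low, and the groups did not overlap. For 106 members every A30 array lay below every parental array (22.1% of all tested genes did), and for 78 every A30 array lay below all 15 arrays of the other lines (5.24% of all tested genes). Since the run was picked on this contrast, these shares describe it and test nothing.

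**Figure D1:**
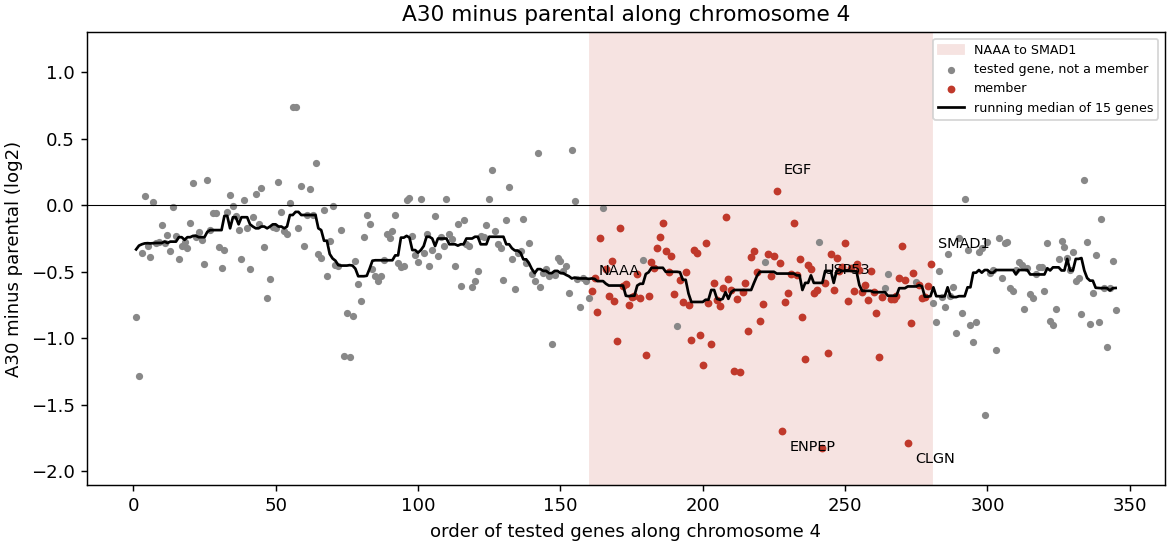
Differences of A30 minus parental line means (log2, vertical axis) for all 345 tested genes of chromosome 4 in order (horizontal axis), with members in red, other tested genes in grey and the running median of 15 genes in black. The running median is below 0 throughout and stays low on both sides of the shaded run, and ENPEP and CLGN lie far below their neighbours.

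The lowered signals did not stop at NAAA or at SMAD1. Just inside the first end, NAAA, SDAD1 and NUP54 differed by −0.64, −0.54 and −0.80 in A30, and just outside it G3BP2, CDKL2 and THAP6 differed by −0.70, −0.57 and −0.55. Just inside the far end, SMAD1, OTUD4 and ANAPC10 differed by −0.44, −0.61 and −0.69, and just outside it MMAA, ZNF827 and TMEM184C by −0.73, −0.88 and −0.49. No step was therefore seen at either named end. The 20 tested genes before NAAA had a median of −0.53, and the 20 after SMAD1 one of −0.69.

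Further out both sides differed. All 65 tested genes after SMAD1, up to FRG1, the last tested gene of the chromosome, had a median of −0.55, with 63 below the parental cells. The 160 tested genes before NAAA had a median of −0.285, with 135 below. In consecutive groups of 15 tested genes, the medians of the first 9 groups, from ZNF718 to PPAT, ran from −0.48 to −0.09, and those of the other 14, from SRP72 to FRG1, from −0.69 to −0.47. The whole of chromosome 4 had a median of −0.45 in A30 (345 genes). The lowest of the other 22 chromosomes in A30 was chromosome 13 at −0.19, and the highest was chromosome 18 at 0.21.

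**Figure D2:**
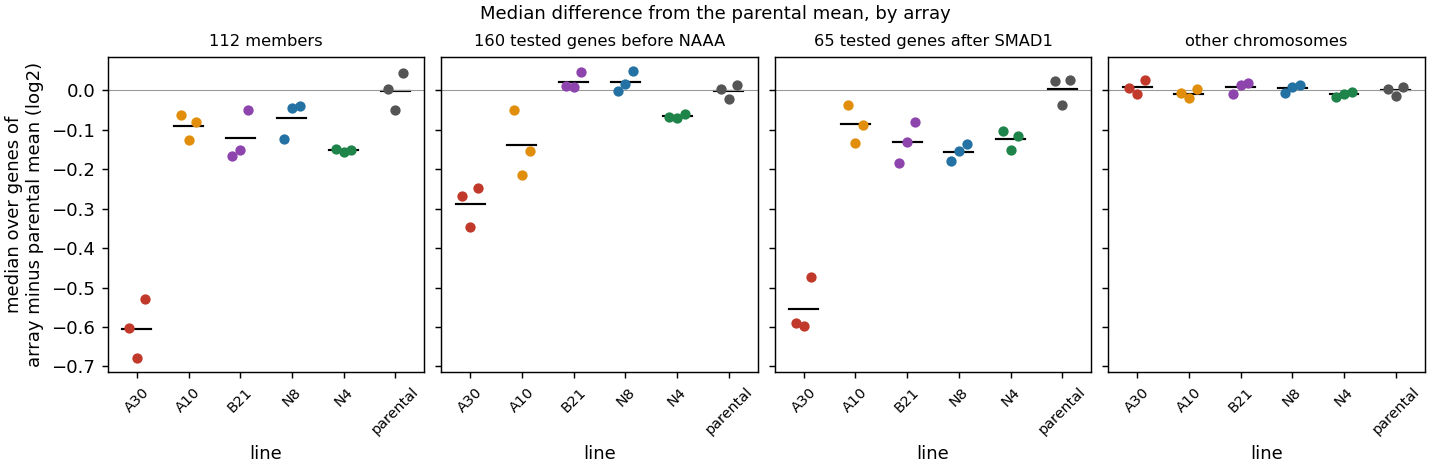
Median over genes of the difference of each array from the parental mean (log2, vertical axis), for the members, for tested genes on either side of the run and for other chromosomes. Points are arrays, 3 per line, and bars are their means. The A30 arrays sit at −0.68 to −0.53 over the members and at −0.01 to 0.03 over other chromosomes.

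The 4 genes that mark the run differed in how A30 stood to the other lines. NAAA, which hydrolyses fatty acid ethanolamides in lysosomes, was at 6.91, 6.91 and 6.92 in the A30 arrays, at 7.31 to 7.91 in the 12 arrays of A10, B21, N8 and N4, and at 7.56, 7.49 and 7.62 in the parental arrays. All 3 A30 arrays were below every other array. USP53 was at 7.52, 7.25 and 7.44 in A30, at 7.56 to 8.14 in the 12 arrays and at 8.13, 7.94 and 8.05 in the parental cells. Again A30 was lowest, with the N8 arrays (7.56 to 7.63) next to it.

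SMAD1, a transcription factor activated by BMP receptors, was at 6.24, 6.04 and 6.04 in A30, at 6.10 to 6.51 in the 12 arrays and at 6.59, 6.50 and 6.56 in the parental cells. Here the A30 and A10 arrays overlapped, and the only array of another line above the lowest parental array was 1 of B21, at 6.51, which was below the other two parental arrays. In the test described further on, SMAD1 fell in A10 (−0.31 ± 0.08, limma adjusted p = 0.0349). The reference in that test was the parental arrays, which helped to choose the run. Against the mean of N4 and N8, SMAD1 was not called in A10. ENPEP, the aminopeptidase that converts angiotensin II to angiotensin III, was at 4.87, 5.21 and 5.04 in A30, at 6.15 to 7.39 in the 12 arrays and at 6.83, 6.60 and 6.78 in the parental cells. Its A30 arrays lay below the filter value of 5.6, where the size of a difference can be understated.

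**Figure D3:**
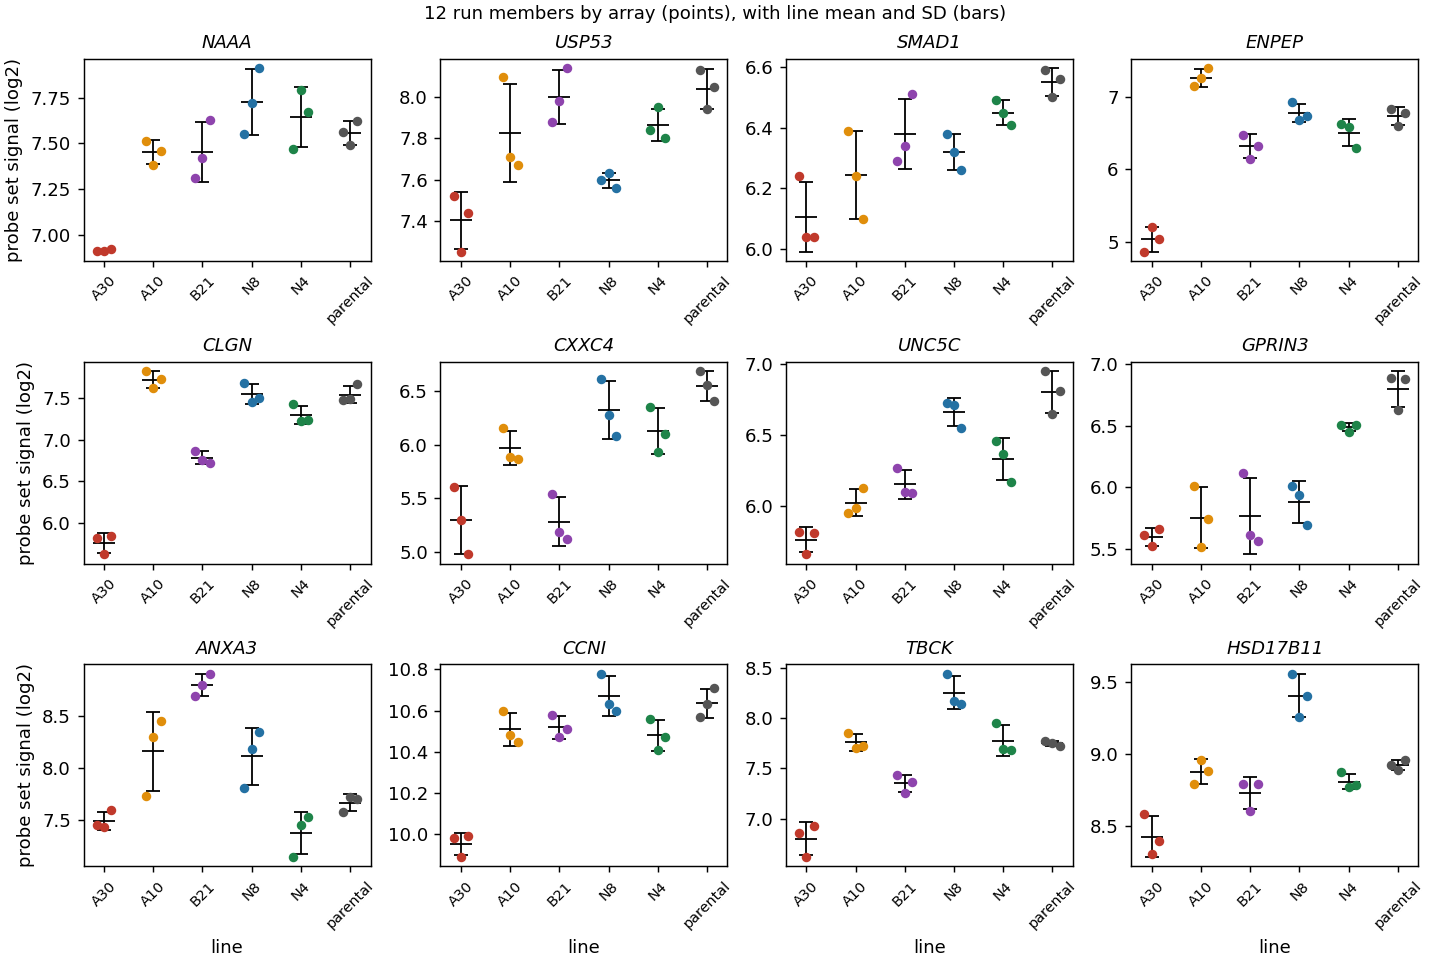
Probe set signal (log2, vertical axes with separate ranges) of 12 members by line. Points are the 3 arrays of a line and bars the line mean and SD. A30 is lowest in 10 of these panels by line mean, whereas the order of the other lines changes from gene to gene: N8 is highest for TBCK and HSD17B11, A10 for ENPEP and CLGN, and B21 for ANXA3.

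The size of the difference varied among members. In 13 members A30 was at least 1 below the parental cells (log2), and 88 lay between −0.90 and −0.30. Of these 13, SEPTIN7P14, ENPEP, TRAM1L1 and NDNF had no A30 array above 5.6, so their differences may be understated and their order among the 13 is not settled. SEPTIN7P14 was measured at −1.83 and is a pseudogene whose probes may also bind transcripts of related septin genes. CLGN, an endoplasmic reticulum chaperone known from testis, was at 5.82, 5.62 and 5.84 in A30 and at 7.48, 7.49 and 7.67 in the parental cells, a difference of −1.79. Further members were ENPEP (−1.70), PPA2, the mitochondrial inorganic pyrophosphatase (−1.25), CXXC4, a Wnt inhibitor (−1.25), and GPRIN3, linked to neurite outgrowth (−1.20). TRAM1L1, a translocon-associated protein gene, was at −1.15, SCLT1, a centriole appendage gene, at −1.14, THAP9-AS1 at −1.13 and NDNF, a secreted neurotrophic factor gene, at −1.11. THAP9-AS1 lies beside THAP9 (−0.68), and whether their probes tell the strands apart was not tested.

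EGF, the growth factor gene, was the only member above the parental cells. It was at 5.61, 5.50 and 5.50 in A30 and at 5.34, 5.52 and 5.42 in the parental cells, so the arrays overlapped, and all of these but one were below 5.6. The other members whose A30 and parental arrays overlapped were ANXA3, GPAT3, ATOH1, PPP3CA-DT and NEUROG2. Grouped by the mean signal of their own probe set, members over 8 were the most alike, with a median of −0.54 and an SD over 25 genes of 0.12. The SD was 0.29 over 38 genes at 7 to 8, 0.37 over 37 genes at 6 to 7 and 0.43 over 12 genes under 6, with medians of −0.67, −0.65 and −0.52. Across the 112 members, mean signal and difference correlated at r = 0.10 (Spearman 0.05). The 63 genes under the filter had a median of −0.05 and a median signal of 3.95, and 38 were below the parental cells. The 8 genes left out by symbol that passed the filter, such as RPL34 (−0.42), PCDH10 (−0.62), PCDH18 (−0.52) and ZNF330 (−0.58), had a median of −0.47 and were all below.

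Of the 112 members, 78 were in 9 role lists and 34 in none. Since the run was chosen on A30 against the parental cells, it was given beforehand that nearly all listed members were below. The lists describe the members and test nothing. The list of cell cycle and mitosis genes had a median of −0.65, with 7 of 7 measured members below. They were CCNI, a cyclin (−0.68), CCNA2, the cyclin A of S phase and mitosis (−0.40), and MAD2L1, of the spindle checkpoint (−0.58). The others were PLK4, the kinase that starts centriole copying (−0.71), CCNG2 (−0.42), ANAPC10 (−0.69) and INTU, in fact a gene of cilium formation (−0.65). CCNI was at 9.98, 9.89 and 9.99 in A30 and at 10.57, 10.63 and 10.71 in the parental cells, and the 12 other arrays lay at 10.41 to 10.78. Its A30 arrays were clear of all 15 others.

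The list of chromatin and transcription genes (12 members, all below) had a median of −0.64. Among them were HNRNPDL, an RNA-binding protein gene (−0.69), BMP2K, in fact a kinase gene (−0.60), ELF2, an ETS factor (−0.71), and SETD7, a lysine methyltransferase (−0.68). The ubiquitin pathway list (10 members, all below) had a median of −0.605, and USP38 (−0.60), COPS4 (−0.47) and OTUD4 (−0.61) were near it. HERC6, a HECT domain gene, was at −1.01 and its neighbour and relative HERC5 at −0.33. In the secretory list (8 members, all below) the median was −0.43, with ANXA5, an annexin, at −0.37, BBS7, of the ciliary BBSome, at −0.49, ANXA3 at −0.17 and OSTC, an oligosaccharyltransferase subunit, at −0.36.

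Genes of RNA processing and translation (10 members, all below) had a median of −0.67, with AIMP1 at −0.39, METTL14, of the m6A methyltransferase, at −0.66, METAP1 at −0.76, EXOSC9, of the RNA exosome, at −0.64 and EIF4E, which binds the mRNA cap, at −0.71. Metabolic genes (14 members, all below) had a median of −0.53, with HSD17B11 at −0.50, UGT8, of galactolipid synthesis, at −0.84, CISD2 at −0.64 and CDS1 at −0.50. Signalling genes had a median of −0.51, with 8 of 9 below, the exception being EGF. WDFY3, an autophagy adaptor, was at −0.38, FGF2, a fibroblast growth factor, at −0.72, TIFA at −0.51 and CAMK2D at −0.40. The list of proteases and peptidases had 3 members, METAP1, ENPEP and NAAA, which is in fact a lipid hydrolase. USP53, USP38 and OTUD4 were in the ubiquitin list instead. Of adhesion, matrix and cytoskeletal genes (8 members, all below, median −0.62), FAT4, an atypical cadherin, was at −0.49, NPNT, a matrix ligand of integrins, at −0.58, FRAS1, of basement membranes, at −1.02 and PDLIM5 at −0.73.

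The other lines differed less from the parental cells over the run. Medians over the 112 members were −0.10 in A10, −0.12 in B21, −0.06 in N8 and −0.16 in N4, against −0.01, 0.01, 0.00 and −0.01 over all tested genes. In A10, 83 members were below the parental cells (53.1% of all tested genes were), in B21 85 (48.6%), in N8 64 (49%) and in N4 101 (53.9%). These comparisons and that of A30 share the parental arrays, which helped to choose the run. Against N4 in place of the parental cells, the A30 median was −0.445, with 109 members below, and against N8 it was −0.56, with 110 below.

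Single members were tested in these lines with limma over all 9686 genes (two-sided, Benjamini-Hochberg adjusted p under 0.05, errors as SE). In A10, 7 members fell (3.18% of all tested genes did) and 2 rose (3.38%). UNC5C, a netrin receptor gene, differed by −0.78 ± 0.09 (limma adjusted p = 0.000123), GPRIN3 by −1.05 ± 0.14, LEF1, a Wnt pathway transcription factor gene, by −0.41 ± 0.08, ELOVL6, a fatty acid elongase gene, by −0.44 ± 0.09 and FAM241A by −0.37 ± 0.10. The other 2 were SMAD1 and CXXC4 (−0.58 ± 0.16). ENPEP rose by 0.52 ± 0.12 (limma adjusted p = 0.0121), with A10 at 7.14 to 7.39 and the parental cells at 6.60 to 6.83, and NPNT rose by 0.36 ± 0.08. ENPEP thus had its highest level in A10 and its lowest in A30. With the A10 array that stood apart removed, 21 members were called in place of 9, and 4 when replicate 3 of A10 was removed. Removing parental replicate 2 or parental replicate 3 left 5.

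In B21, 20 members fell (6.01% of all tested genes) and 3 rose (6.68%). CLGN differed by −0.76 ± 0.09 (limma adjusted p = 3.54e-05), CXXC4 by −1.26 ± 0.16, GPRIN3 by −1.04 ± 0.14, UNC5C by −0.65 ± 0.09 and SCLT1 by −0.63 ± 0.10. CXXC4 was at 5.54, 5.19 and 5.12 in B21, within the range of A30 (4.98 to 5.61), and at 6.68, 6.55 and 6.40 in the parental cells. Its B21 arrays lay below the filter value of 5.6, so its difference may be understated. ANXA3, an annexin gene, rose by 1.14 ± 0.16 (limma adjusted p = 0.000170), GPAT3, a glycerol phosphate acyltransferase gene, by 0.45 ± 0.10 and HPSE, the heparanase gene, by 0.47 ± 0.12. ANXA3 was at 8.69, 8.80 and 8.91 in B21, above all other arrays. Without replicate 2 of B21 the count of 23 was 13, and without replicate 3 of the parental cells 14. With the replicate number as a block it was 32, with 28 lower and 4 higher.

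N4 had 1 called member, UNC5C, which fell (−0.47 ± 0.09, limma adjusted p = 0.0306). Of all tested genes 0.341% fell and 0.206% rose in N4. UNC5C was at 5.82, 5.66 and 5.81 in A30, 5.95, 5.99 and 6.13 in A10, 6.27, 6.10 and 6.09 in B21, 6.73, 6.71 and 6.55 in N8, 6.46, 6.37 and 6.17 in N4 and 6.95, 6.65 and 6.81 in the parental cells. The N8 and parental arrays overlapped, and the other lines lay below both. The N4 call was lost without replicate 2 or 3 of N4 and without replicate 1 or 3 of the parental cells (0 called), and 2 were called without replicate 2 or 3 of A30 or replicate 1 of A10. With the replicate number as a block, 7 members were called in N4.

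In N8 the members after the middle of the run were below the parental cells, while those before it overlapped with them. By median, the later members were also below the parental cells in A10, B21 and N4. In all, 17 members fell (7.03% of all tested genes) and 8 rose (7.67%). The 8 that rose all lay before EGF, among the 61 members from NAAA to GAR1. Of the 17 that fell, 15 lay among the 51 members from EGF to SMAD1 and 2, GPRIN3 and NPNT, among the first 61. BBS12, among these falls, passed the filter only with the parental arrays counted, so its fall describes and does not test. By array, the median over the members from EGF to SMAD1 was −0.24, −0.23 and −0.19 in N8, against 0.00, −0.06 and 0.06 in the parental cells, and over those from NAAA to GAR1 it was −0.01, 0.08 and 0.09 in N8, against 0.00, −0.05 and 0.03 in the parental cells. The difference between both stretches was −0.23, −0.31 and −0.28 in the N8 arrays, and ran from −0.14 to 0.04 in the 15 others. By line, the median from EGF to SMAD1 was −0.19 in N8, −0.13 in A10, −0.15 in B21 and −0.16 in N4. From NAAA to GAR1 it was 0.07 in N8, against −0.07 in A10, −0.11 in B21 and −0.14 in N4. N8 thus differed from these lines mainly over the first stretch. Over the first stretch the N8 and parental arrays overlapped, and the 8 rises were a share of members near that of all tested genes. This split was placed after the N8 values were seen and was not tested.

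**Figure D4:**
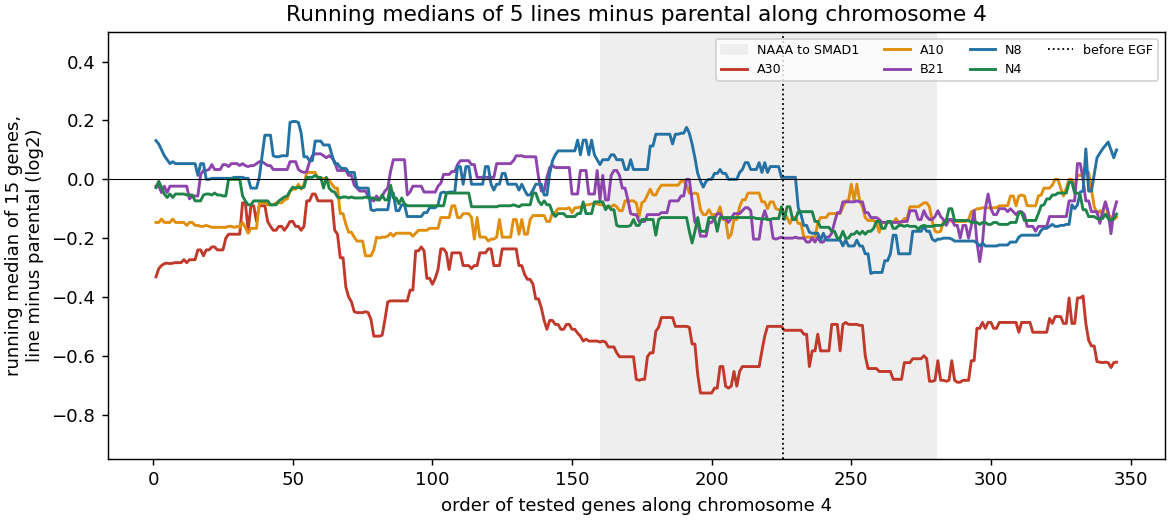
Running median of 15 tested genes of the differences of A30, A10, B21, N8 and N4 minus the parental means (log2, vertical axis) along chromosome 4 (horizontal axis, gene order), with the run shaded and a dotted line before EGF. Within the run N8 lies between −0.03 and 0.18 before the dotted line and between −0.32 and 0.01 after it, while A30 shows no such step there.

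Among the N8 calls, NDNF differed by −1.02 ± 0.14 (limma adjusted p = 0.000238), GPRIN3 by −0.92 ± 0.14, NPNT by −0.48 ± 0.08, HSPA4L, a heat shock chaperone gene, by −0.44 ± 0.09 and MAD2L1 by −0.40 ± 0.08. NDNF was at 5.21, 5.06 and 5.24 in N8, below the filter value of 5.6, so its difference may be understated. HSD17B11, a short-chain dehydrogenase gene of lipid droplets, rose by 0.48 ± 0.09 (limma adjusted p = 0.00188), HERC3 by 0.51 ± 0.09, TBCK by 0.50 ± 0.10, ANTXR2, an anthrax toxin receptor gene, by 0.59 ± 0.13 and WDFY3 by 0.32 ± 0.08. HSD17B11 was at 9.56, 9.26 and 9.40 in N8 and at 8.92, 8.89 and 8.96 in the parental cells, and N8 was the highest line. USP53 also fell in N8 (−0.44 ± 0.11, limma adjusted p = 0.0101). The tested genes after SMAD1 had a median of −0.16 in N8, of which the first 20 were all below the parental cells (median −0.21), and those before NAAA one of 0.03. This was not particular to N8. The first 20 after SMAD1 were also all below in N4 (median −0.14). In A10 and in B21, 17 of the 20 were below (medians −0.12 and −0.15). With the replicate number as a block, 21 members fell and 10 rose in N8 (31 in place of 25). The excess of falls over rises depended on single arrays. Without parental replicate 3 there were 7 falls and 7 rises (14 in place of 25), without N8 replicate 2 there were 9 and 6 (15), and without parental replicate 1 there were 11 and 5 (16).

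Further tests set A10 and B21 against the mean of N4 and N8, so the compared means held neither A30 nor the parental arrays. Their errors and p-values still came from the fit of all arrays, with A30 and the parental cells included. These tests are therefore not independent of the arrays that chose the run. Medians over the members were 0.01 in A10 and −0.04 in B21. In A10, 6 members fell (4.40% of all tested genes) and 10 rose (4.17%), with UNC5C at −0.475 ± 0.08 and LEF1 at −0.35 ± 0.07. NPNT (0.48 ± 0.07) and ENPEP (0.62 ± 0.10) were the first of those higher (limma adjusted p = 0.000566 and 0.000953). ANTXR2 (−0.46 ± 0.11), GPRIN3 (−0.43 ± 0.12) and GPAT3 (−0.31 ± 0.09) were also lower and MFSD8 (0.29 ± 0.07), FAT4 (0.36 ± 0.09) and CLGN (0.30 ± 0.08) higher. Without A10 replicate 1, the array that stood apart, the split turned to 8 lower and 4 higher, and 8 of the 16 calls were shared. The count of 16 came to 10 and 4 when A10 replicates 2 and 3 were each removed, 10 without replicate 2 of N8, and 8 and 9 without replicates 2 and 3 of N4.

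In B21, 14 members fell against the mean of N4 and N8 (6.71% of all tested genes) and 5 rose (8.29%). SCD5, a stearoyl-CoA desaturase gene, differed by −0.63 ± 0.07 (limma adjusted p = 1.34e-05), CLGN by −0.64 ± 0.08, TBCK by −0.66 ± 0.09, CXXC4 by −0.94 ± 0.14 and LEF1 by −0.375 ± 0.07. ANXA3 rose by 1.06 ± 0.14 (limma adjusted p = 8.58e-05), FAT4 by 0.49 ± 0.09, GPAT3 by 0.38 ± 0.09, BBS12 by 0.27 ± 0.07 and BMP2K by 0.27 ± 0.07. BBS12 passed the filter only with the B21 arrays counted (5.64, 5.52 and 5.75). Its rise is therefore a description and not a test. SCD5 lay at 7.07 to 7.23 in B21, against 7.71 to 7.95 in N8 and 7.69 to 7.75 in N4, with no overlap. The count of 19 was 11 without replicate 2 and 10 without replicate 3 of B21. Set directly against B21, A10 had 4 members lower (7.55% of all tested genes) and 12 higher (5.58%), with a median of 0.04. TRAM1L1, among those higher, passed the filter only with the A10 arrays counted.

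Genes elsewhere in the genome were read from 5 lists chosen by function, 4 of them for pathways in which SMAD1, CCNA2, MAD2L1 or ENPEP works and 1, the COPII coat, with no measured member in the run. Of 82 listed genes 56 were tested in A30 against the parental cells, and 7 fell (14.6% of all tested genes) and 8 rose (10.5%), where 1 of the 7 is itself on chromosome 4. Of 15 genes of BMP and SMAD signalling, 6 rose and 1 fell, with a median difference of 0.23 against 0.00 over all tested genes. BMP2, a ligand, rose by 1.16 ± 0.20 (limma adjusted p = 0.000563), with 8.08 ± 0.09 in A30 and 6.92 ± 0.26 in the parental cells (SD, n = 3). BAMBI, a decoy receptor, rose by 0.79 ± 0.11, SMAD4, the common partner of SMAD1, by 0.25 ± 0.07, and the co-repressor gene SKIL fell (−0.34 ± 0.07). SMAD2, SMAD4 and TGIF1, all higher, lie on chromosome 18, which had the highest chromosome median in A30.

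Of 8 tested COPII coat genes, which bud vesicles from the endoplasmic reticulum, SEC16A fell (−0.30 ± 0.06) and SEC23A rose (0.28 ± 0.07) (limma adjusted p = 0.00127 and 0.00764). Of 13 cyclin and CDK genes RB1, on chromosome 13, (−0.40 ± 0.07) and CKS2 (−0.38 ± 0.11) fell, and 0 rose. Of 15 genes of the mitotic checkpoint and centriole, ANAPC4, on chromosome 4 before NAAA, fell (−0.57 ± 0.09) and CEP192, on chromosome 18, rose by 0.39 ± 0.07. Among 5 tested peptidases and angiotensin genes, DPP4 (−0.36 ± 0.08) and MME (−0.44 ± 0.15) fell, and 0 rose. List medians beside 0.00 over all tested genes were 0.04, 0.07, 0.01 and −0.07 in this order of lists.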

How the data were processed

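Gene expression was measured in 18 cultures of 6 HEK lines. The authors made the deposited log2 values, 1 per probe set and array, with Affymetrix Expression Console, per the submitters' processing notes. Its version is not stated by any label, and the log2 scale was read from the values (0.57 to 14.84, array medians 5.09 to 5.18). They were used as deposited, with a pseudocount of 0. For arrays the number of arrays limits the precision. Replicates are cultures of a line, so p-values cover the spread between cultures and not between edited clones.

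Of 53617 probe sets, 16098 had 1 gene symbol, 0 several and 37519 none. The probe set with the highest mean was used for each of 14884 genes, and 9686 genes with at least 3 arrays above 5.6 were tested. Gene order came from RefSeq (GRCh38.p14). Differences were fitted with limma 3.58.1 (R 4.3.3) in 1 fit of all 18 arrays, checked on simulated data. Genes named are the 4 marker genes, the 10 largest falls and any rise in A30, 3 genes on each side of both ends, up to 5 called members per direction and line, and the 4 members of each role list with the highest mean signal. Others were chosen after their values were seen: the overlapping members, genes in figures, the split before EGF, extra list members. The members and lists were chosen with earlier results of these data known.

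Same-numbered arrays deviated together from their line means in B21, N8 and N4 against the parental cells (lowest r 0.145, 0.173 and 0.100), with every r above 0.1. In A10 (0.324, 0.309 and 0.036) and A30 (0.165, 0.299 and 0.000626) replicates 1 and 2 did so and replicate 3 did not, so these numbers were not taken as pairs. In N4 the highest r between arrays of unlike number, 0.172, was above its lowest r of 0.100. The main fit had no term for the replicate number. Counts with it as a block are given for B21, N8 and N4 against the parental cells. Tables were handled with pandas 2.3.3 and numpy 2.4.6 and drawn with matplotlib 3.10.9 in Python 3.11.15. Alternatives covered filter, normalisation, probe set choice, reference, variance model, threshold, a replicate block and leaving out each array.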

Additional observations from a re-analysis of the deposited data

Results flagged for a closer look

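A10 and B21, both labelled ATXN1L-KO, were compared directly, and 16 of 112 members differed, 4 lower and 12 higher in A10 (limma, Benjamini-Hochberg adjusted p under 0.05 over 9686 genes, of which 7.55% were lower and 5.58% higher). CLGN and ENPEP differed most, by 0.94 each (A10 minus B21, log2). They were followed by CXXC4 (0.68), SEPTIN7P14 (0.67), NPNT (0.45), TRAM1L1 (0.43), SCD5, TBCK and SCLT1 (0.41 each), HADH (0.34) and OSTC and EXOSC9 (0.29 each). TRAM1L1 passed the filter only with the A10 arrays counted (5.86, 5.45 and 5.70), and its B21 arrays lay at 5.03 to 5.46. Its difference is therefore a description and not a test. Lower in A10 were GPAT3 (−0.69), ANXA3 (−0.64), RNF150 (−0.43) and BMP2K (−0.27). CLGN was at 7.83, 7.62 and 7.73 in A10, against 6.87, 6.76 and 6.72 in B21, with no overlap. Without replicate 2 of B21 the count was 9.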

How the results depend on the processing

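The A30 median of −0.61 was −0.47 with no filter on dim probe sets, which adds genes near background, −0.51 against the mean of the 3 wild-type lines and −0.445 against N4, and ran from −0.64 to −0.57 without 1 array. The count of 111 members below was 72 where at least 3 arrays had to exceed 7, since fewer genes pass, and 110 to 111 without 1 array. At an adjusted p under 0.01 the counts called were 3 in A10, 11 in B21, 0 in N4 and 10 in N8 against the parental cells, 4 in A10 and 10 in B21 against N4 and N8, 6 between A10 and B21 and 9 partner genes. With the replicate block, counts were 17 in A10 (12 lower, 5 higher) and 7 in N4 against the parental cells and 25 in A10 against N4 and N8, and no other count moved by over 1.5 times. With no filter 0 were called in N4 and 7 in A10 against N4 and N8, and with the filter at 7, 0 in N4. The cause was not tested. Without 1 array the counts ran from 4 to 21 in A10, 13 to 27 in B21, 0 to 2 in N4 and 14 to 30 in N8 against the parental cells, 4 to 18 in A10 and 10 to 20 in B21 against N4 and N8, 9 to 17 between A10 and B21, and 11 to 15 for partner genes. Alternatives for the last 2 were added after seeing the data. Quantile normalisation kept every count within 1.5 times. Averaging probe sets could not change a member's value, since each had a single one.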
